A study of Mus musculus with 6 samples.

Results

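Solute carriers are the membrane proteins that move sugars, amino acids, ions, metals, nucleotides and vitamins across the plasma membrane and the membranes of organelles. The genes described here are those whose symbol starts with Slc and a number and whose deposited TPM (transcript abundance corrected for length and for the size of the library) averaged at least 5 over all 6 libraries, with the glutamate transporter genes Slc1a2 and Slc1a3 left out. Of the 47643 genes in the files, 377 carried an Slc symbol, and 97 met the rule. A further 163 lay above 0 and under 5 TPM, among a total of 278 that fell short, and 115 were listed at 0 in all 6 libraries. Because the mean level chose the genes, their levels are a description and were not tested. The comparison of genotypes was not used in the choice, except that a gene low in only 1 genotype could reach 5 TPM through the other.

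RNA came from GFP-positive ependymal cells sorted from the ventricular-subventricular zone (V-SVZ) of adult mice 2 days after tamoxifen, which had induced recombination, the GFP marker and, in the conditional knockout (cKO), loss of Ccn1, the gene of a secreted matrix protein. There were 3 cKO and 3 control samples. The sort gate was set by hand against wild-type cells. The control is labelled only as Ctrl, and the sources used here do not state its alleles, the driver of the recombinase, the exact age or whether animals were pooled. The labels also describe the RNA as cytoplasmic. The p-values below measure the spread between these samples, which may be technical, since nothing in the labels says that they came from separate animals. In bulk RNA of this kind, fewer cells of a type and less RNA per cell cannot be told apart.

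Ependymal cells form a ciliated sheet between the brain and the cerebrospinal fluid, so their carriers can face the fluid on the apical side and the stem cell niche on the basal side. Many carriers work as pairs or with partners: Slc3a2 is the heavy chain that brings light chains of family 7 to the surface, monocarboxylate transporters need basigin, and sodium-coupled carriers draw on the gradient made by the sodium pump. Family 25 sits mainly in the inner mitochondrial membrane, and family 35 feeds nucleotide sugars to the endoplasmic reticulum and Golgi.

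The library totals were 13401499 to 15689579 estimated counts. Ccn1 stood at 18.7, 11.6 and 23.7 TPM in the cKO and 63.6, 98.7 and 93.5 TPM in the control, so each library went with its label (log2 difference -2.22 ± 0.38 SE, exact permutation p = 0.1, two-sided, the smallest that 3 against 3 allows). By the edgeR test used below, its unadjusted p was 0.000415 and its adjusted p 0.99999, so Ccn1 was not called over all genes. All 10 ependymal markers, from Foxj1 at 13.9 to Rarres2 at 7573 TPM on average, were detected, and they summed to 25949 to 27144 TPM in the cKO and 25122 to 30279 TPM in the control. Control 1 had the fewest genes with a count, 12460, against 13024 to 14530 in the other libraries.

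The 97 solute carriers together took 0.586% of all TPM, and mitochondrial carriers made up 58.2% of that sum. The summed level of all 97 was 5740.0, 6229 and 5543 TPM in the cKO and 4981, 6531 and 6108 TPM in the control, lowest in control 1 and highest in control 2. The 21 mitochondrial genes summed to 3451 ± 168 TPM in the cKO and 3363 ± 252 TPM in the control (SD, n = 3 each, here and below). The next groups lay close together. The 13 metal carriers summed to 405 ± 52.5 TPM in the cKO and 451 ± 94.1 TPM in the control, and the 16 genes of family 35 to 412 ± 113 TPM in the cKO and 418 ± 81.5 TPM in the control. The 14 amino acid carriers summed to 388 ± 59.4 TPM in the cKO and 442 ± 116 TPM in the control, and the 8 carriers of peptides, lipids, urea and organic ions to 401 ± 41.4 TPM in the cKO and 395 ± 141 TPM in the control. The 5 sugar carriers reached 268 ± 19.8 TPM in the cKO and 266 ± 80.3 TPM in the control, and the 8 carriers of vitamins and choline 140.1 ± 18.5 TPM in the cKO and 187 ± 42.8 TPM in the control. The 6 carriers of inorganic ions summed to 126 ± 28.2 TPM in the cKO and 106 ± 35.3 TPM in the control, the 2 monocarboxylate carriers to 65.8 ± 9.47 TPM in the cKO and 67.7 ± 45.2 TPM in the control, and the 1 nucleobase carrier stood at 56.4 ± 27.6 TPM in the cKO and 53.9 ± 30.96 TPM in the control. For each of these sums the cKO and control ranges overlapped.

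**Figure D1:**
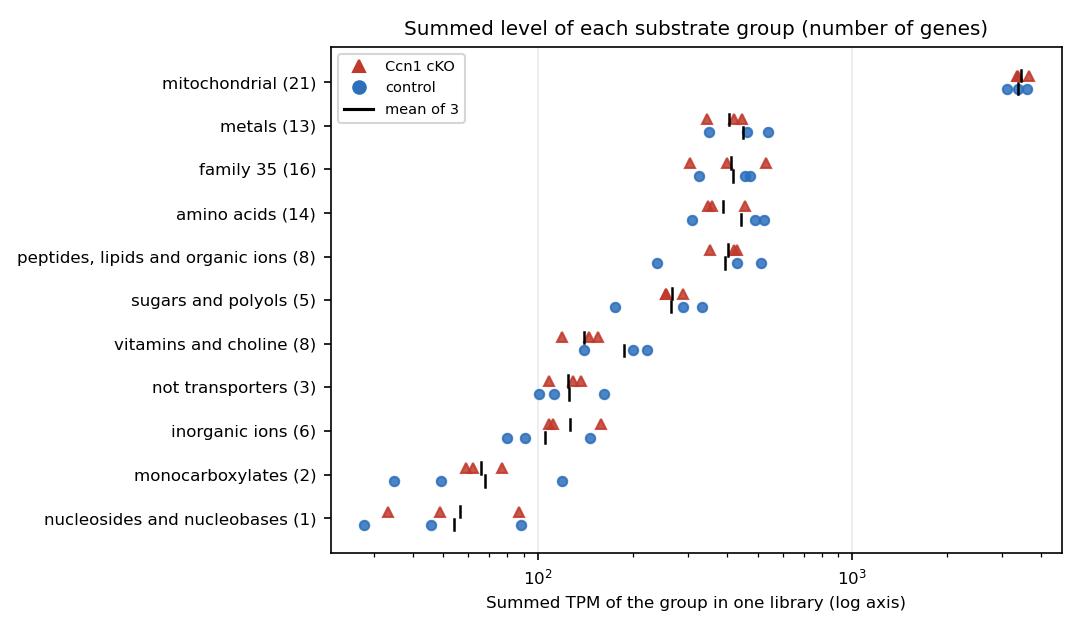
Summed TPM of each substrate group in each library on a log axis, with cKO libraries as triangles, control libraries as circles and the mean of 3 as a bar. The mitochondrial group stands far to the right at 3106 to 3645 TPM, and the genotypes overlap in every group.

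A single gene led most groups. Slc25a5 held 42.95% of the mitochondrial sum and 24.99% of the sum of all 97. Slc16a1 held 77.8% and Slc2a1 69.9% of their groups, while the amino acid group was the most even, with 23.8% in Slc38a1. The 3 genes of the set that are not transporters are kept apart. Slc9a3r1 and Slc9a3r2 encode scaffold proteins that bind carriers, and Slc7a6os is a neighbour of Slc7a6 on the opposite strand.

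**Figure D2:**
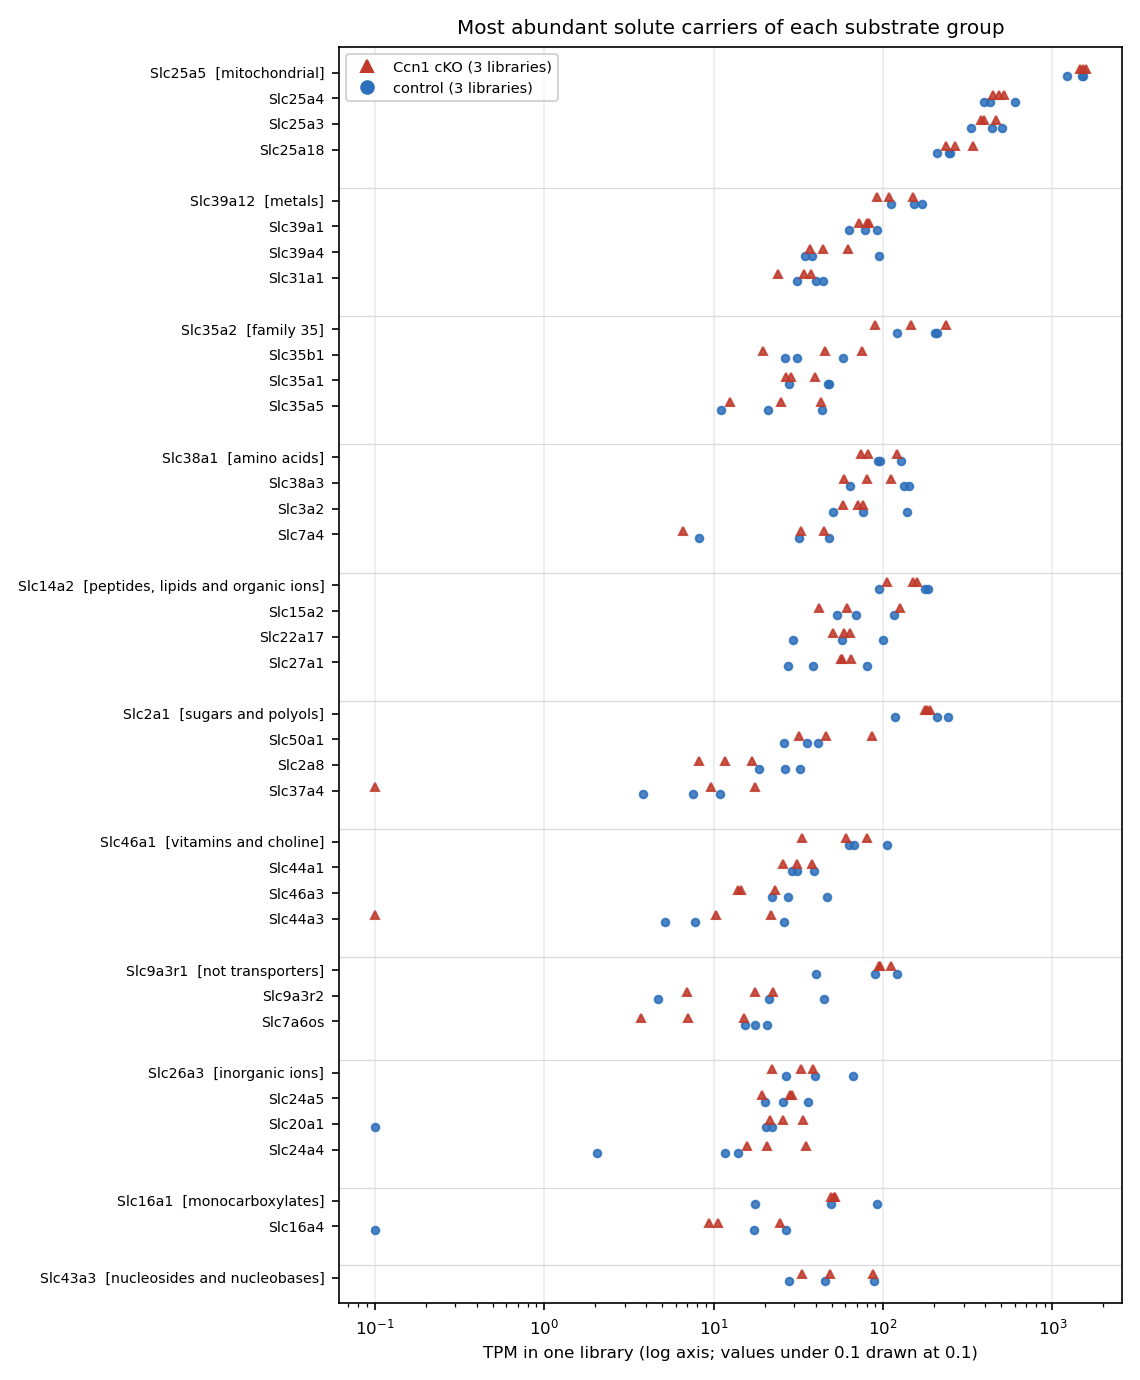
TPM of up to 4 of the most abundant genes of each substrate group in every library on a log axis, with cKO libraries as triangles and controls as circles. Slc25a5 lies between 1218 and 1586 TPM, and the points drawn at 0.1 TPM mark single libraries in which a gene was listed at or near 0.

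Family 25 led the set. Slc25a5, the adenine nucleotide translocator 2 that exchanges ADP for ATP across the inner membrane, stood at 1507, 1586 and 1447 TPM in cKO libraries and 1218, 1519 and 1502 TPM in controls, rank 68 among all genes in the files. Slc25a4, the translocator 1 of the same exchange, followed at 481, 518 and 445 TPM in cKO libraries and 604, 428 and 394 TPM in controls. Slc25a5 was thus the more abundant of the pair in every library, while Slc25a4 was highest in control 1, where Slc25a5 was lowest. Slc25a5 maps to chromosome X (bases 36795651 to 36798807, plus strand) and Slc25a4 to chromosome 8 (bases 46206797 to 46211284, minus strand), both in GRCm38 by the GENCODE M21 annotation, which is used for every position here. Whether reads could be credited to the wrong copy of this pair depends on the words that the copies share. The stretch of their coding sequences around the longest identical run is shown, with capitals where the copies differ. It runs from base 286 to base 375 of each, counted from the start codon.
Slc25a5: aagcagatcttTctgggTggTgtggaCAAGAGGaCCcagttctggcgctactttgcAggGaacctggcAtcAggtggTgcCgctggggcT
Slc25a4: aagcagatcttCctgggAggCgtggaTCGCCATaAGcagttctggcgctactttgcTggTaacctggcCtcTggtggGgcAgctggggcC
The coding sequences, of 897 bases each, were identical at 77.5% of positions, and the longest identical run was 20 bases. They shared 0 words of 31 bases, the default word length of the program that assigned the reads. By GENCODE M21, 0% of the 31-base words of Slc25a4 occurred in another gene. For Slc25a5 the share was 49.4%, most of it with the transcript Gm5560.

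Slc25a3, which brings phosphate into the matrix for ATP synthesis, stood at 465, 394 and 378 TPM in cKO libraries and 331, 504 and 442 TPM in controls. Slc25a18, a mitochondrial glutamate carrier, stood at 236, 341 and 267 TPM in cKO libraries and 208, 247 and 248 TPM in controls, and its sister Slc25a22 was under the threshold at 4.02 TPM on average. Slc25a39, a carrier of glutathione into mitochondria, stood at 197 ± 43.6 TPM (cKO) and 229 ± 26.7 TPM (control). Its relative Slc25a40 stood at 4.29 ± 2.08 TPM (cKO) and 12.3 ± 12.8 TPM (control). Slc25a17, which sits in peroxisomes rather than mitochondria, ranged more widely, at 68.7, 164 and 198 TPM in cKO libraries and 82.4, 112 and 184 TPM in controls. The oxoglutarate carrier Slc25a11 and the aspartate-glutamate carrier Slc25a12 together serve the malate-aspartate shuttle. Slc25a11 stood at 97.6 ± 8.19 TPM (cKO) and 60.1 ± 28.3 TPM (control), and Slc25a12 at 4.21 ± 1.38 TPM (cKO) and 7.47 ± 1.18 TPM (control). Slc25a14, also known as UCP5, stood at 61.99 ± 14.4 TPM (cKO) and 77.5 ± 4.29 TPM (control), and Slc25a20, which carries acylcarnitines for fatty acid oxidation, at 53.9 ± 7.56 TPM (cKO) and 66.2 ± 28.1 TPM (control). Of the pyrimidine nucleotide carriers, Slc25a33 stood at 38.7 ± 7.34 TPM (cKO) and 66.8 ± 8.49 TPM (control) and Slc25a36 at 12.1 ± 4.95 TPM (cKO) and 8.13 ± 5.94 TPM (control). Lower in the family were the oxodicarboxylate carrier Slc25a21 at 41.1 TPM on average, Slc25a46, an outer membrane protein, at 27.3, the dicarboxylate carrier Slc25a10 at 21.8, and the glycine carrier Slc25a38 of haem synthesis at 18.9 TPM. The citrate carrier Slc25a1 averaged 17.6 TPM, the S-adenosylmethionine carrier Slc25a26 11.6 and Slc25a43 7.96 TPM. In all, 21 of the 48 family 25 genes in the files reached 5 TPM on average.

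Slc2a1 was by far the most abundant sugar carrier. The gene, which encodes GLUT1, stood at 177, 190.5 and 182 TPM in cKO libraries and 118, 243 and 208 TPM in controls. The cKO values lay close together, within the wider control range set by control 1 and control 2. Slc2a1 maps to chromosome 4 (bases 119108711 to 119137983, plus strand) and held 86.5% of the summed mean TPM of the 13 family 2 genes in the files. The intracellular transporter gene Slc2a8 (GLUT8) stood at 8.18, 16.97 and 11.7 TPM in cKO libraries and 18.6, 32.5 and 26.6 TPM in controls, and Slc2a12 (GLUT12) averaged 8.12 TPM with 0 counts in control 1. The neuronal isoform gene Slc2a3 averaged 0.0836 TPM, and Slc2a4, the insulin-regulated GLUT4, was listed at 0 in every library. These genes under the threshold, and those of other groups named below, were picked by their textbook roles after their values had been seen. Slc50a1, a sugar exporter of the SWEET family, stood at 86.3, 46.1 and 32.2 TPM in cKO libraries and 35.9, 41.5 and 25.9 TPM in controls, and Slc37a4, the glucose-6-phosphate carrier of the endoplasmic reticulum, averaged 8.26 TPM. Among monocarboxylate carriers, Slc16a1 (MCT1), which moves lactate, pyruvate and ketone bodies, stood at 51.3, 51.8 and 49.6 TPM in cKO libraries and 17.6, 92.4 and 49.03 TPM in controls, with control 1 lowest and control 2 highest. Slc16a4 averaged 14.8 TPM. Slc16a3, the glial and muscle isoform MCT4, averaged 0.185 TPM, and Slc16a7, the neuronal isoform MCT2, was listed at 0.

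Glutamine carriers headed the amino acid group. Slc38a1 (SNAT1), which takes up glutamine and other small neutral amino acids with sodium, stood at 74.5, 121 and 81.1 TPM in cKO libraries and 92.9, 129 and 95.4 TPM in controls, and Slc38a3 (SNAT3), which can release glutamine from glia, at 80.04, 111 and 58.6 TPM in cKO libraries and 64.1, 142 and 133 TPM in controls. Their means over the 6 libraries, 98.9 and 98.2 TPM, differed by less than the spread of either gene. Slc38a2 (SNAT2) stood at 26.8 ± 6.06 TPM (cKO) and 18.99 ± 4.17 TPM (control). The heavy chain gene Slc3a2 stood at 71.7, 57.9 and 76.02 TPM in cKO libraries and 50.6, 75.8 and 139 TPM in controls, with control 3 highest. Of its light chains, Slc7a7 averaged 5.43 TPM, whereas Slc7a5, the large neutral amino acid transporter LAT1 of the blood-brain barrier, averaged 0.1295, Slc7a6 3.104, Slc7a8 0.135 and the cystine transporter Slc7a11 0.961 TPM. Slc7a4, a relative of the cationic transporters, stood at 6.65, 44.8 and 32.7 TPM in cKO libraries and 8.26, 32.1 and 47.9 TPM in controls, low in cKO 1 and control 1, and P2rx6, with which it shares 9.75% of its 31-base words, averaged 20.1 TPM. The arginine carrier Slc7a2 averaged 5.72 TPM. Slc1a4 (ASCT1), an exchanger of serine, alanine, cysteine and threonine, stood at 4.35 ± 1.504 TPM (cKO) and 12.5 ± 0.0889 TPM (control), and its sister Slc1a5 (ASCT2) averaged 0.959 TPM.

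Several carriers of neurotransmitters were at or near 0. Slc6a11 (GAT3), which takes up GABA, averaged 0.625 TPM. The vesicular glutamate transporters Slc17a6 and Slc17a7, the vesicular GABA transporter Slc32a1 and the dopamine and serotonin transporters Slc6a3 and Slc6a4 were all listed at 0 counts in the 6 libraries. Slc6a19, a neutral amino acid carrier best known from gut and kidney, averaged 12.6 TPM, Slc6a15 5.76, the lysosomal sialic acid carrier Slc17a5 20.6, Slc38a6 10.8 and Slc38a10 6.58 TPM. The creatine transporter Slc6a8 fell just short at 4.61 TPM.

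Among carriers of small organic molecules, the urea transporter Slc14a2, best known from the kidney, led at 149, 158 and 106 TPM in cKO libraries and 94.1, 177 and 185 TPM in controls, and its sister Slc14a1 averaged 7.02 TPM. Slc15a2 (PEPT2), which clears small peptides from the cerebrospinal fluid, stood at 41.7, 61.6 and 126 TPM in cKO libraries and 69.1, 116 and 53.6 TPM in controls, highest in cKO 3 and control 2. Slc22a17, a receptor for lipocalin-2, stood at 57.8 ± 6.67 TPM (cKO) and 62.3 ± 35.9 TPM (control), and Slc27a1 (FATP1), which takes up long-chain fatty acids, at 59.5 ± 4.75 TPM (cKO) and 49.02 ± 27.9 TPM (control). Slc22a4 (OCTN1), the ergothioneine transporter, stood at 27.4, 41.9 and 43.3 TPM in cKO libraries and 7.85, 36.3 and 33.3 TPM in controls, with control 1 lowest. The acetyl-CoA carrier Slc33a1 averaged 12.3 TPM and Slc22a23 9.297 TPM.

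Zinc importers led the metal carriers. Slc39a12 (ZIP12), a zinc importer of the brain, stood at 151, 108 and 91.6 TPM in cKO libraries and 111, 153 and 169.5 TPM in controls. It maps to chromosome 2 (bases 14388316 to 14494977, plus strand). Slc39a1 (ZIP1), a plasma membrane importer, stood at 72.2, 82.5 and 80.9 TPM in cKO libraries and 63.2, 77.9 and 92.1 TPM in controls, and Slc39a4 (ZIP4), best known for zinc uptake in the gut, at 44.5, 62.4 and 37.2 TPM in cKO libraries and 38.3, 34.6 and 94.8 TPM in controls, highest in control 3. Slc39a7 (ZIP7), which releases zinc from the endoplasmic reticulum, averaged 22.3 TPM but had 0 counts in control 1. Slc39a11 and Slc39a9 averaged 13.4 and 7.84 TPM. Of the genes that load zinc into the Golgi, Slc30a6 averaged 20.2 TPM and its partner Slc30a5 15.4 TPM, while Slc30a9 averaged 11.2 TPM. The copper importer Slc31a1 (CTR1) stood at 34.2, 37.4 and 24.1 TPM in cKO libraries and 30.96, 43.97 and 40.1 TPM in controls, and its relative Slc31a2 averaged 15.1 TPM. Both map to chromosome 4, Slc31a2 from 62262562 to 62298411 and Slc31a1 from 62360727 to 62391769. Slc48a1, which moves haem out of lysosomes, stood at 24.9 ± 10.1 TPM (cKO) and 17.2 ± 11.8 TPM (control). The iron importer Slc11a2 (DMT1) averaged 5.21 TPM, and the iron exporter Slc40a1 (ferroportin) was just under the threshold at 16.9, 8.99 and 0 TPM in cKO libraries and 0, 2.73 and 0 TPM in controls.

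Carriers of inorganic ions were few and low. The chloride-bicarbonate exchanger Slc26a3 stood at 22.02, 32.8 and 38.4 TPM in cKO libraries and 26.6, 66.1 and 39.8 TPM in controls. Slc24a5, a cation exchanger known from pigment cells, stood at 25.5 ± 5.42 TPM (cKO) and 27.4 ± 8.08 TPM (control). By GENCODE M21 it shares 40.2% of its 31-base words with other genes, most of them with Myef2, which averaged 49.9 TPM, so its level rests on how the program divided those reads. Slc20a1, a phosphate importer, stood at 25.6, 21.4 and 33.5 TPM in cKO libraries and 22.3, 20.4 and 0.0249 TPM in controls, and the sodium-calcium-potassium exchanger Slc24a4 at 20.6, 34.97 and 15.7 TPM in cKO libraries and 2.05, 13.9 and 11.7 TPM in controls. The potassium-chloride cotransporter Slc12a4 averaged 9.75 TPM and the sodium bicarbonate cotransporter Slc4a4 5.09 TPM. Slc12a2 (NKCC1), which drives fluid secretion in the choroid plexus, was under the threshold at 1.44, 7.97 and 2.24 TPM in cKO libraries and 2.701, 3.82 and 0.235 TPM in controls, and the neuronal Slc12a5 averaged 0.0122 TPM. The scaffold gene Slc9a3r1 (NHERF1), whose product ties membrane proteins to ezrin in apical processes, was more abundant than any of these ion carriers, at 96.6, 111 and 94.3 TPM in cKO libraries and 121, 90.1 and 40.4 TPM in controls. Its relative Slc9a3r2 averaged 19.6 TPM and Slc7a6os 13.2 TPM.

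In family 35, Slc35a2, which brings UDP-galactose into the Golgi, stood at 235, 146 and 90.3 TPM in cKO libraries and 121, 202 and 209 TPM in controls. Slc35b1, which exchanges ATP for ADP across the membrane of the endoplasmic reticulum, stood at 74.7, 19.6 and 45.6 TPM in cKO libraries and 57.9, 31.03 and 26.5 TPM in controls. Slc35a1, the CMP-sialic acid carrier, stood at 31.6 ± 6.84 TPM (cKO) and 41.2 ± 11.5 TPM (control), and Slc35a5 at 26.9 ± 15.5 TPM (cKO) and 25.2 ± 16.6 TPM (control). The sulfate donor (PAPS) carriers Slc35b3 and Slc35b2 averaged 16.9 and 14.9 TPM. The other 10 genes, Slc35a4, Slc35f5, Slc35e3, Slc35g2, Slc35b4, Slc35d1, Slc35f6, Slc35e4, Slc35d2 and Slc35c2, ran from 22.4 down to 5.05 TPM. For nucleobases there was Slc43a3, a purine nucleobase transporter, at 33.4, 87.1 and 48.9 TPM in cKO libraries and 45.6, 88.2 and 27.99 TPM in controls. The nucleoside transporter Slc29a1 (ENT1) was under the threshold at 3.42, 5.45 and 6.51 TPM in cKO libraries and 0, 12.3 and 0 TPM in controls.

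Folate and choline carriers led the vitamin group. Slc46a1, the proton-coupled folate transporter, stood at 33.4, 60.2 and 80.4 TPM in cKO libraries and 63.2, 67.03 and 105 TPM in controls, while the reduced folate carrier Slc19a1 averaged 5.79 TPM, with 220, 538 and 1 estimated counts in cKO libraries and 1, 101 and 1 estimated counts in controls. Slc46a3, a lysosomal relative, stood at 17.2 ± 5.04 TPM (cKO) and 32.2 ± 13.1 TPM (control). The choline transporter-like gene Slc44a1 stood at 38.2, 25.7 and 31.1 TPM in cKO libraries and 31.2, 28.9 and 39.1 TPM in controls, and Slc44a3 and Slc44a2 averaged 11.8 and 9.68 TPM. Slc23a2, which takes up vitamin C, averaged 5.49 TPM, and Slc5a6, the carrier of biotin and pantothenate, 5.603 TPM.

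At the threshold, the lowest genes inside it were Slc11a2, Slc4a4 and Slc35c2, at 5.21, 5.09 and 5.05 TPM on average. The first outside it were Slc35e2, Slc41a1 and Slc16a9, at 4.99, 4.88 and 4.84 TPM. The genes left out by name averaged 257 TPM for Slc1a3 and 7.68 TPM for Slc1a2.

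How well a level was known fell with the level. The coefficient of variation over the 6 libraries, the SD as a percentage of the mean, had a median of 19.8% for the 10 solute carriers at 100 TPM or more and 87.2% for the 27 at 5 to 10 TPM. The medians over all genes of those levels were 19.8% and 78.1%. The steadiest genes were Slc25a5 (8.75%), Slc39a1 (12.5%), Slc25a3 (15.03%), Slc25a4 (15.7%) and Slc44a1 (16.3%). The most variable were Slc19a1 (149%), Slc35c2 (146%), Slc38a10 (145%), Slc25a26 (127%) and Slc35d2 (123%). In 26 of the 97 genes (26.8%) at least 1 library held 3 counts or fewer, against 21.6% of all 8011 genes at 5 TPM or more. Slc35a4 had 511, 749 and 639 estimated counts in cKO libraries and 0, 658 and 1167 estimated counts in controls, and Slc25a26 had 0, 62 and 792 estimated counts in cKO libraries and 500, 46 and 134 estimated counts in controls. Such genes dropped out in single libraries while reaching high counts in others. Control 1 was the lowest library for 27 of the 97 genes (27.8%) and for 26.5% of all genes at 5 TPM or more. Control 2 was the highest for 30 of the 97 (30.9%) and for 17.7% of all such genes.

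**Figure D3:**
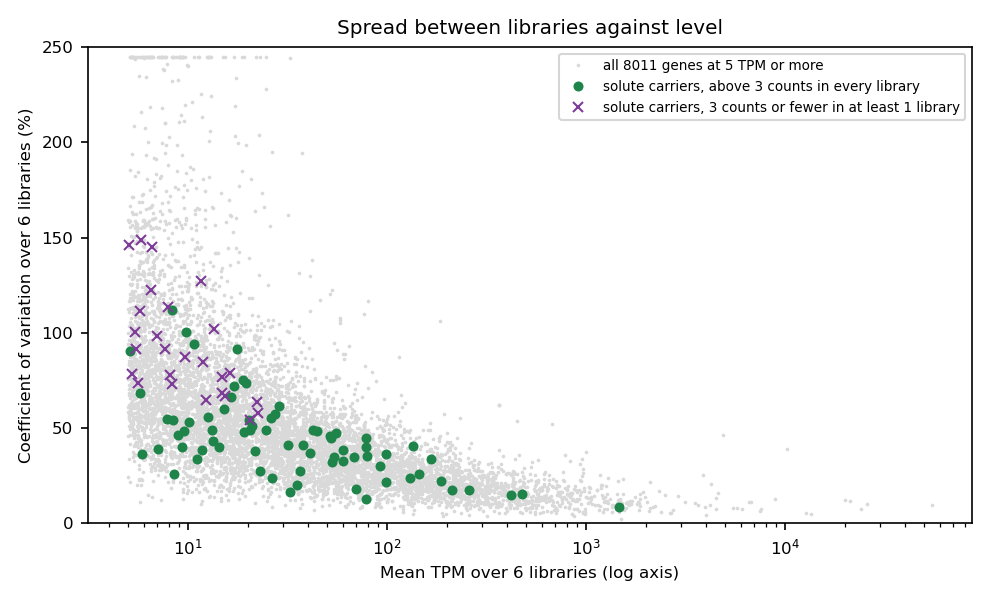
Coefficient of variation over the 6 libraries against mean TPM on a log axis, for all genes at 5 TPM or more (grey), solute carriers above 3 counts in every library (circles) and those at 3 counts or fewer in at least 1 library (crosses). Spread falls as the level rises, and the crosses, 26 in all, lie at 22.4 TPM or less.

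The genotypes were compared to ask whether loss of Ccn1 changed the transporters of ependymal cells. No solute carrier passed the test over all genes: the edgeR quasi-likelihood test called 0 of the 97 at a Benjamini-Hochberg adjusted p of 0.05, as it called 0% of the 11574 genes tested, and limma-voom also called 0. Ccn1 itself was among the genes that edgeR did not call, so 0 calls do not show that the carriers were unchanged. DESeq2 called 1 of the 97, Slc1a4 (adjusted p = 0.0454), where it called 1.63% of all genes given an adjusted p. Slc1a4 passed the rule of 5 TPM through the control alone, as its cKO mean was 4.35 TPM and its control mean 12.5 TPM, so the call is no support for a change among solute carriers. At an unadjusted p of 0.05 edgeR listed 2 genes, Slc25a33 and Slc1a4, both lower in the cKO, which is 2.06% of the 97 against 2.75% of all genes in either direction and 1.31% lower in the cKO. DESeq2 listed 6 solute carriers at that threshold, and 6% of all genes, while limma-voom listed 4, and 5.25% of all genes. The log2 difference was below 0 for 54 and above 0 for 43 (44.3%, against 50.3% of all genes), with a median of -0.049 against 0.0044 over all genes tested. The groups did not overlap in 10 genes (10.3%, against 9.62% of all genes tested), 4 of them higher in the cKO (4.12%, against 4.99% of all genes) and 6 lower (6.19%, against 4.62%). These shares lie near the background, so they are no result about solute carriers.

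**Figure D4:**
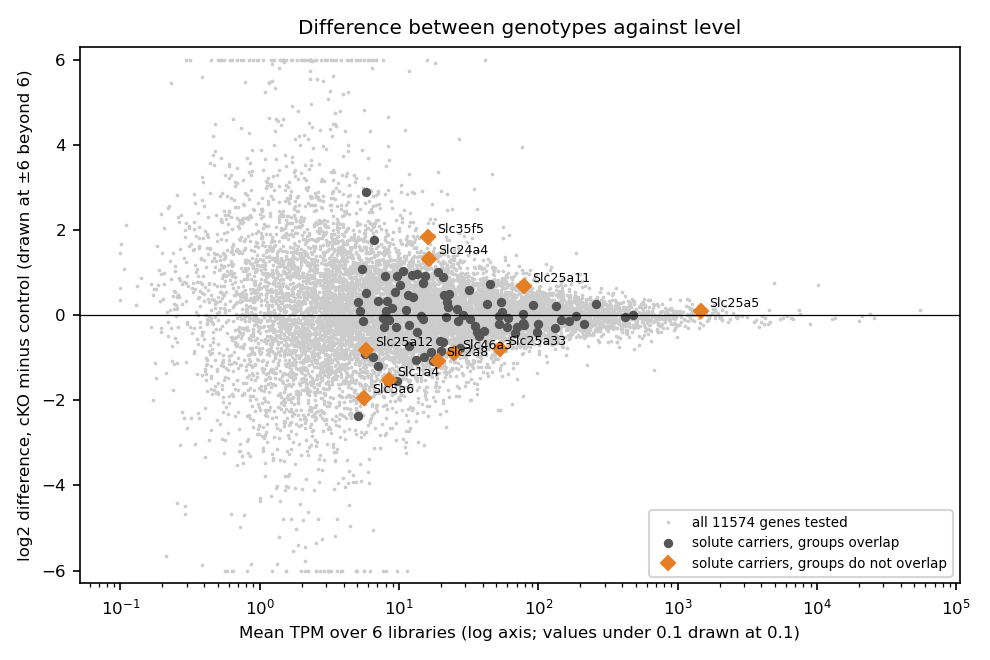
Log2 difference, cKO minus control, against mean TPM on a log axis for all 11574 genes tested (grey) and the 97 solute carriers. The carriers lie within the cloud of all genes, and the 10 labelled ones are those whose cKO and control values did not overlap.

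Slc1a4 had 121, 205 and 258 estimated counts in cKO libraries and 674, 539 and 609 estimated counts in controls, or 8.77, 15.2 and 18.96 CPM in cKO libraries and 44.6, 39.3 and 38.9 CPM in controls, where CPM is the count scaled to library size. Every control exceeded the highest cKO library. The log2 difference was -1.51 ± 0.64 (SE), with a 95% interval of -2.99 to -0.042 (edgeR adjusted p = 0.99999). It maps to chromosome 11 (bases 20302180 to 20332713, minus strand). Slc25a33 stood at 49.1, 50.7 and 70.7 CPM in cKO libraries and 111, 103 and 80.6 CPM in controls, again with all controls above all cKO libraries. Its log2 difference was -0.79 ± 0.32 (SE), with an interval of -1.52 to -0.055 (edgeR adjusted p = 0.99999). It maps to chromosome 4 (bases 149744036 to 149774277, minus strand), and 13.5% of its 31-base words occur in another gene, the low Gm13068. With 1 library left out, Slc1a4 stayed at an unadjusted p under 0.05 in 1 of 6 fits (without cKO 3) and Slc25a33 in 2 of 6 (without cKO 3 and without control 3). Their log2 differences ranged from -1.77 to -1.26 and from -0.98 to -0.68 in those fits.

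The other 8 genes whose groups did not overlap each had an interval that held 0. Lower in the cKO were Slc2a8 at 13.7, 27.3 and 19.98 CPM in cKO libraries and 33.9, 51.5 and 42.4 CPM in controls (-1.07 ± 0.58 (SE)), Slc46a3 at 24.7, 40.2 and 27.3 CPM in cKO libraries and 42.3, 82.8 and 46.6 CPM in controls (-0.896 ± 0.49 (SE)) and Slc25a12 at 29.2, 25.2 and 14.99 CPM in cKO libraries and 37.8, 45.4 and 39.7 CPM in controls (-0.82 ± 0.56 (SE)). Slc5a6, with 1, 139 and 103 estimated counts in cKO libraries and 366, 389 and 253 estimated counts in controls, had a log2 difference of -1.93 ± 1.56 (SE). Its cKO 1 library held 1 count. Slc25a12 and Slc5a6 reached 5 TPM on average only through the control, so their separation is no support for a change. Higher in the cKO were Slc24a4 at 48.99, 85.2 and 44.01 CPM in cKO libraries and 8.53, 34.01 and 28.3 CPM in controls (1.33 ± 0.64 (SE)) and Slc25a11 at 122, 135 and 125 CPM in cKO libraries and 97.7, 103 and 35.8 CPM in controls (0.69 ± 0.41 (SE)), where control 3 was far below the other controls. Slc35f5 had 660, 798 and 830 estimated counts in cKO libraries and 1, 642 and 0 estimated counts in controls, so that 2 controls were at or near 0 and the third was just under the lowest cKO library (1.84 ± 2.004 (SE)). Slc25a5 stood at 1329, 1337 and 1299.5 CPM in cKO libraries and 1167, 1264 and 1264 CPM in controls, a log2 difference of 0.102 ± 0.11 (SE), and in TPM its groups overlapped.

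**Figure D5:**
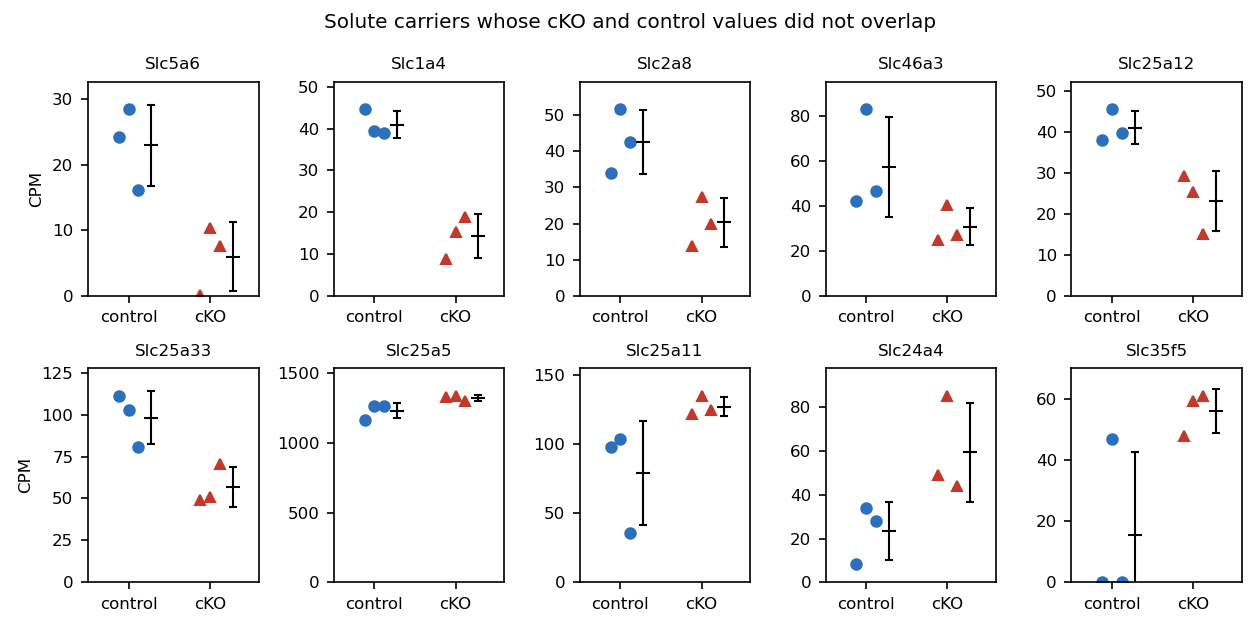
CPM in each library for the 10 solute carriers whose cKO and control values did not overlap, ordered by log2 difference from the lowest, with the mean and SD of 3 beside the points. The 3 controls of Slc1a4 lie close together, at 38.9 to 44.6 CPM. In Slc35f5, 2 controls lie at or near 0.

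Among the most abundant carriers the intervals bounded a change to different degrees, most closely for Slc25a5 and least closely for Slc35a2 and Slc25a17. The 95% interval of the log2 difference was -0.16 to 0.36 for Slc25a5, -0.52 to 0.51 for Slc25a4, -0.42 to 0.36 for Slc25a3, -0.14 to 0.66 for Slc25a18 and -0.68 to 0.25 for Slc25a39. It was -0.54 to 0.49 for Slc2a1, -0.84 to 0.25 for Slc39a12, -0.75 to 0.54 for Slc14a2, -0.97 to 0.69 for Slc35a2 and -0.78 to 1.199 for Slc25a17. The median half-width was 0.787 for the 26 genes at 50 TPM or more and 3.65 for the 27 under 10 TPM (1.27 to 6.95 among them), so the precision among the low genes differed widely. In the groups not yet named, the gene with the smallest p had a log2 difference of 0.58 ± 0.56 (SE) for Slc22a4, -0.39 ± 0.41 (SE) for Slc35a1, -0.29 ± 0.23 (SE) for Slc39a12, -1.05 ± 1.09 (SE) for Slc7a6os, 0.064 ± 0.49 (SE) for Slc43a3 and -0.082 ± 1.43 (SE) for Slc16a4.

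None of the genes that work with carriers passed the test. Of 38 partner genes, 32 were tested, of which 12 were higher and 20 lower in the cKO, and 0 passed over all genes by edgeR, DESeq2 or limma-voom. Of the 32, 1 had an unadjusted p under 0.05 by edgeR, against 2.75% of all genes tested, so this count is no result about the partners. That gene was Rdx, which encodes radixin, a link between membrane proteins and actin that binds the scaffolds above, at 50.1 ± 7.99 TPM (cKO) and 89.9 ± 19.99 TPM (control) (log2 difference -0.62 ± 0.23 SE, edgeR adjusted p = 0.99999). All its cKO libraries lay below all controls, as they did in 4.62% of all genes tested. Of the ferritin chains, which store iron, Fth1 stood at 6096 ± 647 TPM (cKO) and 6079 ± 376 TPM (control) and Ftl1 at 4006 ± 205 TPM (cKO) and 4027 ± 205 TPM (control), while the transferrin receptor Tfrc averaged 0.695 TPM. Bsg (basigin), the partner of MCT1, stood at 859 ± 91.8 TPM (cKO) and 812 ± 166 TPM (control). Of 30 other transporter genes, 29 were found and 14 tested, with 8 higher, 6 lower, 0 past the test over all genes by edgeR, DESeq2 or limma-voom and 0 at an unadjusted p of 0.05 by edgeR. Of the mitochondrial pyruvate carrier subunits, Mpc1 stood at 1572 ± 141 TPM (cKO) and 1506 ± 539.7 TPM (control), about the level of Slc25a5, and Mpc2 at 216 ± 26.1 TPM (cKO) and 216 ± 89.8 TPM (control). Aqp4, the water channel of glia, stood at 211 ± 42.1 TPM (cKO) and 242 ± 22.2 TPM (control), and Mfsd2a, a lysophospholipid transporter, at 0.816 ± 0.751 TPM (cKO) and 3.76 ± 4.96 TPM (control). These had the smallest p of the list.

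Some of these carriers are also known from cells that a sort could carry along. Endothelial markers, of interest for Slc2a1 and Slc16a1, summed to 38.03 to 84.8 TPM in the cKO and 39.7 to 68.1 TPM in the control, and 6 of 10, Cldn5, Pecam1, Ly6c1, Cdh5, Tek and Kdr, were listed at 0 in every library. Nearly all of the sum was Itm2a. Neuron markers summed to 1.71 to 15.8 TPM in the cKO and 10.5 to 29.1 TPM in the control. Choroid plexus markers, which bear on Slc15a2 and Slc4a4, summed to 327 to 957 TPM in the cKO and 539.7 to 742 TPM in the control, led by Folr1, with Aqp1 at 0. Folr1 ran from 297 to 558 TPM over the libraries, but others swung widely. Ttr stood at 290, 520 and 0.251 TPM in cKO libraries and 5.29, 147 and 148 TPM in controls. Kcnj13 stood at 46.8, 42.9 and 0.0794 TPM in cKO libraries and 0, 19.4 and 0 TPM in controls. Astrocyte markers, which bear on Slc38a3 and Slc25a18, summed to 2064 to 2465 TPM in the cKO and 2167 to 3317 TPM in the control, led by Aldoc, with 0 of 10 listed at 0. The 8 astrocyte markers tested had a median log2 difference of -0.32, from -1.53 for Fgfr3 to -0.00298 for S1pr1, and 0 reached an unadjusted p of 0.05. Of the 2 not tested, Agt stood at 9.62, 0 and 11.2 TPM in the cKO and was listed at 0 in every control, and Gjb6 stood at 2.38 ± 4.12 TPM (cKO) and 1.68 ± 2.905 TPM (control). Oligodendrocyte markers summed to 217 to 239 TPM in the cKO and 111 to 329 TPM in the control, microglial markers to 110.2 to 172 TPM in the cKO and 159.8 to 175 TPM in the control, and mural and fibroblast markers to 365 to 373 TPM in the cKO and 218 to 402 TPM in the control. The part of such cells in the levels of single carriers was not tested.

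By GENCODE M21, most carriers could be told from other genes by their sequence. Of the 97, 29 shared no 31-base word with a transcript of another gene on either strand and 68 shared under 5%, with a median of 1.55%. The 9 above 20% were Slc39a7 (76.8%, all of it with the transcript Gm20427), Slc25a5 (49.4%, most with the transcript Gm5560), Slc38a6, Slc24a5, Slc33a1, Slc5a6, Slc39a1, Slc35e3 and Slc35a4. Gm5560 averaged 0.0198 TPM and Gm20427 2.996 TPM in the files, and Slc39a1-ps was listed at 0. Levels of these 9 genes are uncertain, since the program divides shared reads by estimate.

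Promoters differed in CpG content among the carriers. RefSeq promoter windows on GRCm38.p6, from 250 bases before to 50 after the start, were matched for 80 of the 97 genes. The ratio of observed to expected CpG was at least 0.6 in 66.2% of them. The share was 41.8% of the 208 matched Slc genes under 5 TPM, 74.7% of the 6175 matched genes at 5 TPM or more, and 36.5% of all promoters in that table. Of the 10 most abundant carriers 9 had a window, not Slc14a2. The extremes of the ratio were Slc25a39, with 45 CpG and a ratio of 1.02, and Slc25a18, with 4 CpG and a ratio of 0.2198, with mean levels of 213 and 258 TPM. Slc39a12 also had 4 CpG, at a ratio of 0.381. Both windows are shown to let the contrast be seen, with CpG in capitals, Slc25a39 at chr11:102407468-102407767 on the minus strand and Slc25a18 at chr6:120773518-120773817 on the plus strand.
Slc25a39: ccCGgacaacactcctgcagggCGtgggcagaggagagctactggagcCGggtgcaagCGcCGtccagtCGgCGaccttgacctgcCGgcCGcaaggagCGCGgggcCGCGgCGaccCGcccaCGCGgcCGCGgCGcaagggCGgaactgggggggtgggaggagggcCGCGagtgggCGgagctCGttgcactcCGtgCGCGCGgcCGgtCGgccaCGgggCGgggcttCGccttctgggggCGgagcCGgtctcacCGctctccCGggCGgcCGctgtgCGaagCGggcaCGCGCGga
Slc25a18: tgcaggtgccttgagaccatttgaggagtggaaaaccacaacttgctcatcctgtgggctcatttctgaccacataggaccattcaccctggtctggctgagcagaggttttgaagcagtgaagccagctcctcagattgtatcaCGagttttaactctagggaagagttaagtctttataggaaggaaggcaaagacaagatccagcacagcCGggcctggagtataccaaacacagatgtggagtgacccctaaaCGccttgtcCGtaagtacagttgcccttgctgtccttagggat
The ratio is a description of these windows and says nothing of what regulates the genes.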

How the data were processed

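Per the submitters' processing notes, reads were handled with CASAVA 1.8, cutadapt 1.11 and kallisto 0.42.5. The last of these divides reads among transcripts by their words. The sources used here do not state a genome build, an annotation or how transcripts were summed to genes. The authors deposited, per the file headers, estimated counts that are not normalized and TPM values for each of 47643 genes. Levels here are the deposited TPM. Estimated counts were rounded, kept by filterByExpr (11574 genes), normalized by TMM, then tested by edgeR 4.0.16 (quasi-likelihood, robust, genotype only, R 4.3.3), with Benjamini-Hochberg adjustment over all genes tested at 0.05. SE is the log2 difference divided by the root of F. DESeq2 1.42.0, limma 3.58.1, other scalings and filters, a replicate block and fits without each library were compared. Files were matched to GENCODE M21 by gene identifier (99.1%). Depth was 13401499 to 15689579 counts a library. The genes, groups and lists were chosen with earlier results of these data known. Named genes were, per group, the 4 highest in TPM and the smallest p, all at an unadjusted p under 0.05, the 10 highest, the 3 either side of the threshold, the 5 lowest and highest in spread, and per list the 2 highest and the 2 smallest p. Others were added for their roles, and a few genes that the rule names are not reported here. Substrate groups follow the family number, except that families 5, 16 and 43 were divided by gene.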

Additional observations from a re-analysis of the deposited data

How the results depend on the processing

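The count of called solute carriers was 0 in 9 of 10 other fits, the replicate block included, in all 6 fits without 1 library and under all 3 other rules for the members. DESeq2 called 1, Slc1a4 (log2 difference -1.52). At an unadjusted p of 0.05 the count of 2 became 6 with DESeq2 (6% of all genes), 4 with limma-voom (5.25% of all genes), 4 with unfiltered log2(TPM + 1), 0 with all genes that have a count and 0 with the replicate block, and ran from 0 to 2 without 1 library. It was 1 for a mean TPM of at least 10 (70 genes), 5 for at least 2 (140 tested of 144 genes) and 1 for at least 5 in each sample (51 genes), which removes genes low in any library of either genotype. Except with DESeq2 and limma-voom, the share of all genes was not taken beside these counts, so they are no result about solute carriers. Genes with separate groups numbered 17 of 140 tested at a mean TPM of at least 2 (12.1%, against 9.44% of all genes under that rule) and 5 of 51 with 5 TPM in each sample (9.8%, against 9.48%). Without 1 library they numbered 18 to 23, as fewer samples separate more easily (17.7% to 21.2% of all genes). Same-numbered samples did not pair (correlations of deviations 0.00800, 0.0312 and 0.0152), though each correlated best with its own number.

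The median log2 difference over the 97 genes changed sign without control 2 (0.0601) and was -0.16 without control 1. Ccn1 stayed lower in every fit. Of 25 single genes, 17 kept their sign in every fit. Slc25a4 turned to 0.039 with limma-voom, 0.0098 with total counts, 4.8e-05 at a mean of at least 10 CPM, 0.042 on log2(TPM + 1) filtered or not, 0.042 on log2(TPM + 0.1) and 0.042 with the block. With limma-voom, log2(TPM + 1) filtered or not, log2(TPM + 0.1) and the block, Slc2a1 turned to 0.022, 0.014, 0.014 and 0.013, and Slc16a4 to 1.98, 0.83, 1.59 and 0.93. Without 1 library the ranges crossed 0 for Slc25a4 (-0.15 to 0.296), Slc2a1 (-0.23 to 0.16), Slc16a4 (-0.72 to 0.57), Slc14a2 (-0.31 to 0.035), Slc25a17 (-0.13 to 0.54), Slc25a3 (-0.13 to 0.067), Slc35a2 (-0.56 to 0.13) and Slc43a3 (-0.36 to 0.55). The cause was not tested.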

Other observations

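Among Slc genes under the 5 TPM threshold, 70 of 278 reached a tested level, and edgeR called 0 of them over all genes, as did limma-voom. DESeq2 called 6 of the 78 to which it gave an adjusted p, against 1.63% of all genes. At an unadjusted p of 0.05 DESeq2 listed 16, against 6% of all genes, and limma-voom 10 of 70, against 5.25%. At that threshold edgeR listed 6 of the 70, against 2.75% of all genes. In each of the 6, no library of 1 genotype was above 2 counts, where fitted folds depend on the prior count, so counts are given. Slc13a4, a sulfate transporter, had 245, 295 and 208 estimated counts in cKO libraries and 0, 2 and 0 estimated counts in controls. The intracellular nucleoside transporter Slc29a3 had 162, 302 and 58 estimated counts in cKO libraries and 0, 0 and 0 estimated counts in controls, and Slc15a4, a lysosomal histidine and peptide transporter, had 44, 141 and 30 estimated counts in cKO libraries and 1, 0 and 0 estimated counts in controls. Slc27a3, of the fatty acid transport family, had 297, 18 and 140 estimated counts in cKO libraries and 1, 0 and 0 estimated counts in controls. In the other direction, the Golgi zinc transporter Slc30a7 had 0, 0 and 0 estimated counts in cKO libraries and 335, 141 and 409 estimated counts in controls, and the riboflavin transporter Slc52a2 had 1, 0 and 0 estimated counts in cKO libraries and 182, 67 and 195 estimated counts in controls. The 6 that DESeq2 called are these, with adjusted p from 2.18e-08 to 0.00737. They reached a tested level only through the genotype where they are high, so these calls support nothing, and they were picked by p after their values had been seen. Single libraries at 3 counts or fewer also occurred in 26 of the 97 carriers above the threshold.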
